A study of Brassica napus with 15 samples.

Results

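The gibberellin receptor gene GID1a of oilseed rape was followed from the dry seed to the young seedling. It is the row BnaC05g46680D of the expression table, taken by its locus name, and so 1 of 101040 coding genes. RNA-seq was run on seeds of 3 winter oilseed rape (Brassica napus) accessions, C129, C033 and C032, which the study had chosen as faster (C129 and C033) and slower (C032) in germination. Each accession was sampled as dry seed (0 hai, hours after imbibition) and at 2, 12, 36 and 72 hai. The study describes germination on water in the dark at a constant temperature for its germination, metabolite and hormone assays. It gives no separate conditions for the RNA-seq seeds and names no hormone, mutant or other treatment of them. By their labels the 15 groups thus differ only in accession and time. Each group is 1 library, made from RNA of 3 biological replicates of 30 seeds that were combined, so no spread can be measured within an accession at 1 time point. For the tests, the 3 accessions were therefore taken as repeats of each time point, and the 5 times as repeats of each accession.

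Gibberellin is the hormone that promotes germination, and its effect is opposed by abscisic acid (ABA). GID1 proteins are the soluble receptors of the hormone. A receptor that has bound gibberellin takes hold of a DELLA protein, a repressor of growth and germination such as RGL2, and the DELLA protein is then marked for breakdown through an F-box protein (SLY1, or its relative SNE). In Arabidopsis the receptor is encoded by a small family of genes whose members overlap in function, and GID1a is one of them. The RNA of a receptor says nothing by itself about the amount of receptor protein or of hormone.

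In the table, GID1a lies on the plus strand of scaffold LK032510 of the B. napus assembly AST_PRJEB5043_v1, from 243095 to 244865, a span of 1771 bases with 2 exons that add up to 1437 bases. B. napus carries 2 subgenomes, called A and C, and the C05 in the locus name places this copy in the C subgenome. How reads that fit both this copy and a near-identical one were shared out is not given in the sources used here, so its values may include reads of other copies. The pair of primers that the study designed for the locus is shown because it is the only sequence at hand that belongs to GID1a. Each is written 5′ to 3′.
BnaGID1a-F: tcagaccaagagggacctgt
BnaGID1a-R: tggatgaggagtgagcgaag
Both are 20 bases long with 11 G or C. The qPCR made with them was not analysed here.

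The stage labels were checked with 3 HSP17.6 loci, which code for small heat shock proteins and are named by the study as transcripts of the stored seed. They were at 9.58 to 809 TPM (reads per length of a gene, as a share of a common total) at 0 hai and at 0 to 9.02 TPM at 36 and 72 hai. The lowest dry-seed value was that of BnaC03g05240D, which was at most 2.33 TPM at 36 and 72 hai. The study had sorted HSP17.6 by its course in the C129 libraries also used here, so for C129 the check is not independent. The labels of 2 and 12 hai were not checked in this way. The coverage of the coding genes corresponded to 19360693 to 41692811 reads of 100 bases in a library, and non-coding rows took 9.51% to 39.1% of the coverage. Because TPM are shares of that whole, each level of GID1a was also recomputed with the median-of-ratios scaling, which sets the typical coding gene equal in all libraries. That scaling lowered the median change of all genes from 0.25 to 0 (log2) between 2 and 12 hai, and the median difference of C129 from C033 from 0.36 to 0.01.

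The GID1a transcript was stored in the dry seed of all 3 accessions, had its highest TPM at 12 hai in each of them (in C129 not after median-of-ratios scaling), and fell by 36 hai to a small part of that level. In C129, GID1a stood at 59.3 TPM at 0 hai, 60.0 TPM at 2 hai, 90.1 TPM at 12 hai, 2.12 TPM at 36 hai and 4.29 TPM at 72 hai. In C033, the levels at these times were 41.0, 36.4, 71.3, 4.22 and 3.14 TPM. In C032, they were 17.5, 18.8, 59.6, 5.19 and 2.99 TPM. The 9 libraries of 0, 2 and 12 hai ranged from 17.5 to 90.1 TPM with a median of 59.3 TPM, the 6 libraries of 36 and 72 hai ranged from 2.12 to 5.19 TPM with a median of 3.68 TPM, and these ranges did not overlap. The same separation held for 9.07% of the 53233 genes tested. In whole seeds, fewer cells that carry a transcript and less of it in each cell cannot be told apart.

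**Figure D1:**
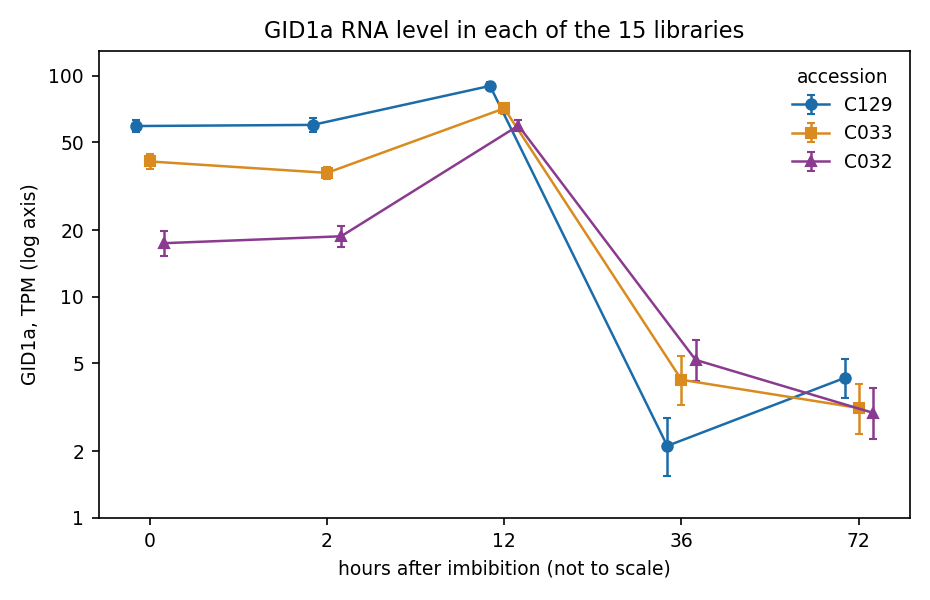
GID1a level in TPM (log axis) against hours after imbibition in accessions C129, C033 and C032, 1 point per library; bars are 95% exact Poisson intervals of the fragments behind each value and cover counting error only. All 9 libraries up to 12 hai lie between 17.5 and 90.1 TPM and all 6 later ones between 2.12 and 5.19 TPM.

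The levels of the late libraries rested on fewer reads than those of the early ones. The highest value, in C129 at 12 hai, rested on about 1887 fragments, and its 95% exact Poisson interval ran from 86.1 to 94.3 TPM. The lowest value, in C129 at 36 hai, rested on about 45.4 fragments, with an interval of 1.55 to 2.83 TPM. These intervals cover counting error only and leave out the spread between batches of seed.

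At 12 hai GID1a was among the most abundant coding transcripts. Only 0.958% of the coding genes had a higher TPM in C033, 1.21% in C129 and 1.85% in C032. At 36 hai the share of coding genes above it was 38.2% for C129, 22.6% for C033 and 21.4% for C032.

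The fall between 12 and 36 hai was the main event in the course of GID1a. The mean over the accessions was 73.7 ± 15.4 TPM at 12 hai and 3.84 ± 1.57 TPM at 36 hai (SD, n = 3 accessions). The level fell by 3.99 on the log2(TPM + 1) scale, with a standard error of 0.39 and a 95% interval of -4.84 to -3.13 (limma with accession as a term, Benjamini-Hochberg adjusted p = 3.39e-06). In this comparison 14% of the genes tested fell past the threshold used (adjusted p below 0.05 together with an absolute log2 change above 1), and GID1a had the 178th largest fall of 53233. On plain TPM, the level at 12 hai was 42.6 times that at 36 hai in C129, 16.9 times in C033 and 11.5 times in C032. The same ratio passed a log2 fall of 1 in 22% of the genes compared in C129, 21.7% in C033 and 24.6% in C032. At 36 hai GID1a was at 2.35%, 5.91% and 8.70% of the maximum in C129, C033 and C032. The study had placed GID1a in a cluster of transcripts that are high until 12 hai and repressed by 36 hai. That cluster came from the C129 libraries also used here, so the fall in C129 was known in advance. Without the C129 libraries the change from 12 to 36 hai was -3.54 (limma adjusted p = 2.62e-05).

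GID1a remained low at 72 hai. The mean was 3.47 ± 0.714 TPM at 72 hai (SD, n = 3 accessions), and the change from 36 hai was -0.07 with an interval of -0.92 to 0.79 (limma adjusted p = 0.909). In single libraries the accessions went different ways between these times, which was not tested. The counting intervals leave out the spread between batches of seed. C129 moved from 2.12 to 4.29 TPM, with counting intervals of 1.55 to 2.83 and 3.48 to 5.25 TPM that did not overlap. C032 moved from 5.19 to 2.99 TPM, and its intervals of 4.17 to 6.38 and 2.27 to 3.86 TPM did not overlap either. In C033 the intervals of 3.24 to 5.39 and 2.39 to 4.05 TPM overlapped. Between the dry seed and the 72 hai seedling GID1a fell by 3.02 on the log2(TPM + 1) scale (limma adjusted p = 1.63e-05), in a comparison in which 10.4% of the genes tested fell and 41.9% rose.

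After 2 h of soaking GID1a was near its dry-seed level. The mean was 39.3 ± 21.0 TPM at 0 hai and 38.4 ± 20.7 TPM at 2 hai (SD, n = 3 accessions). The difference was -0.02 on the log2(TPM + 1) scale, with an interval of -0.87 to 0.84 (limma adjusted p = 1). In each accession the counting intervals of the 2 libraries overlapped. Past the threshold, 0.00188% of all genes tested rose at this step.

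The higher level at 12 hai did not pass the test. GID1a was higher at 12 than at 2 hai in 3 of 3 accessions, with a log2 ratio of 0.59 for C129, 0.97 for C033 and 1.66 for C032. The mean difference was 1.05 with an interval of 0.19 to 1.90 (limma adjusted p = 0.0574), in a comparison in which 11% of the genes tested rose. From 0 to 12 hai it was 1.03 with an interval of 0.18 to 1.88 (limma adjusted p = 0.0567), and 13.2% of the genes rose. The 0 and 2 hai differences share their 12 hai libraries. With the median-of-ratios scaling the difference between 2 and 12 hai was 0.58 (limma adjusted p = 0.285), and C129 then had 60.2, 57.5 and 58.3 scaled TPM at 0, 2 and 12 hai. Without the C129 libraries the difference was 1.28 (limma adjusted p = 0.0221), and without the 36 hai libraries the difference of 1.05 had an adjusted p of 0.00625.

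**Figure D2:**
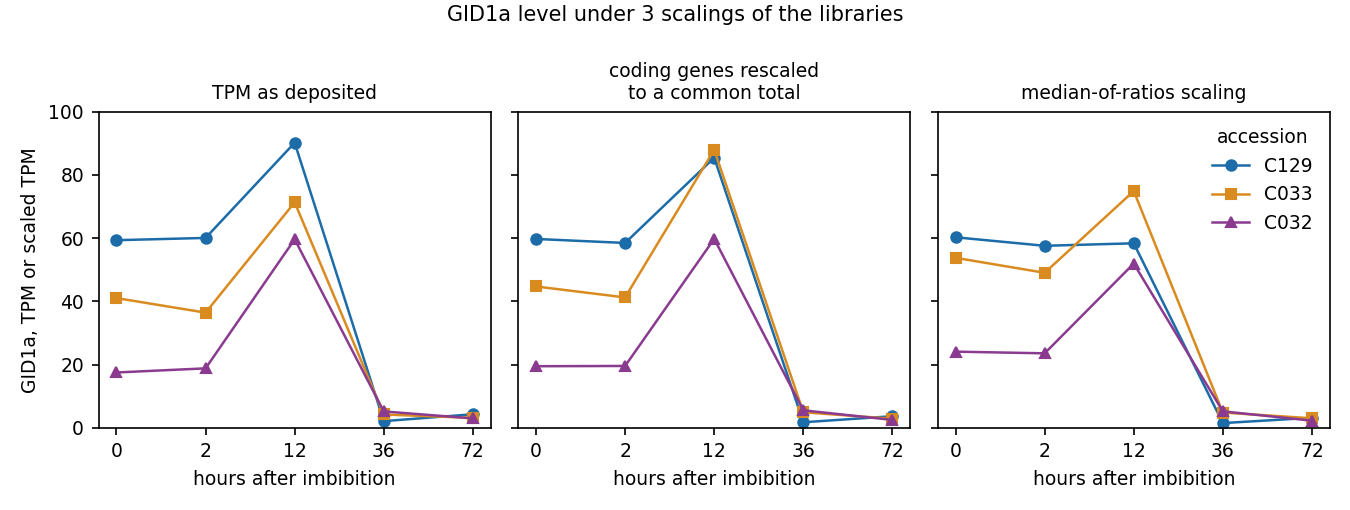
GID1a level against hours after imbibition in C129, C033 and C032 (1 point per library) in TPM as deposited, after rescaling coding genes to a common total, and after median-of-ratios scaling. The 12 hai point of C129 stands at 90.1, 85.4 and 58.3 in these panels, while the drop to 36 hai is present in all of them.

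The order of the time points was therefore 72, 36, 2, 0 and 12 hai by mean level. The neighbours 72 and 36 hai, 2 and 0 hai, and 0 and 12 hai did not differ past the threshold. The step between 36 and 2 hai did, with a difference of -2.94 from 2 to 36 hai (limma adjusted p = 2.89e-05), where 12.5% of the genes tested fell, and so did that between 0 and 36 hai, with -2.95 (limma adjusted p = 2.66e-05), where 11.8% fell.

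**Figure D3:**
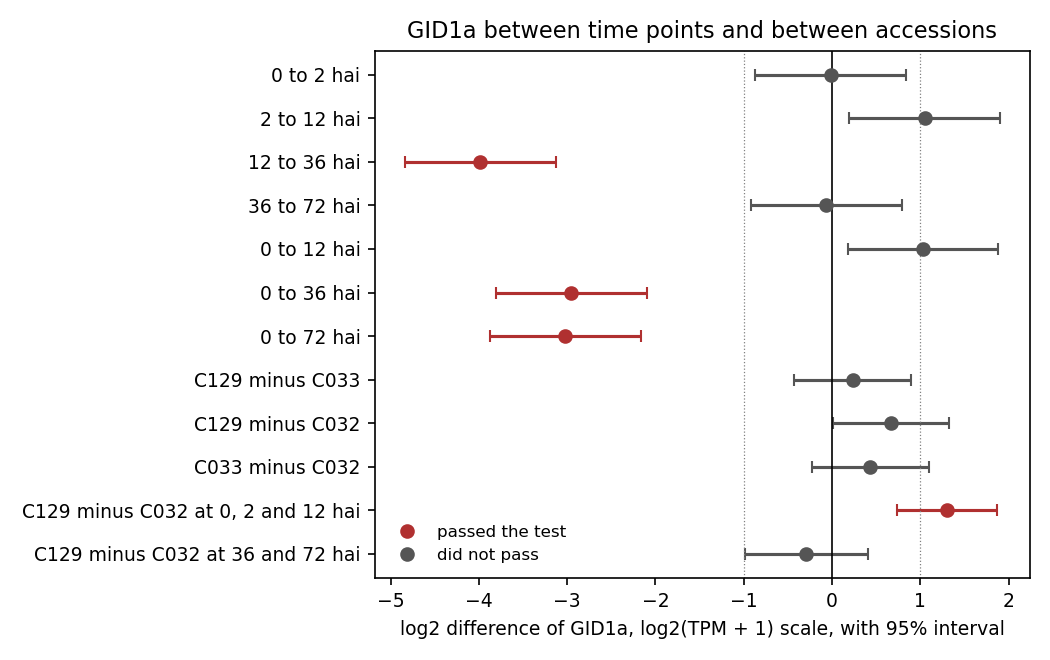
Differences of GID1a between time points and between accessions on the log2(TPM + 1) scale from the limma fits, with 95% intervals; dotted lines mark 1 and -1. The falls from 12 to 36, 0 to 36 and 0 to 72 hai lie between -3.99 and -2.95 and passed the test, and among the accession differences only C129 minus C032 at 0, 2 and 12 hai (1.31) passed.

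The level of GID1a differed between the dry-seed libraries, 1 per accession, and this difference at 1 time point was not tested. In TPM as deposited, at 0 hai the level in C129 was 1.45 times that in C033 and 3.39 times that in C032. At 2 hai these ratios were 1.65 and 3.19, and at 12 hai they were 1.26 and 1.51. The dry seed held 65.8% of the accession's own maximum in C129, 57.5% in C033 and 29.4% in C032. With the median-of-ratios scaling C129 was at 2.50 times C032 at 0 hai and 1.12 times at 12 hai, while its ratio to C033 was 1.12 at 0 hai and 0.779 at 12 hai.

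The order C129, C033, C032 from highest to lowest was found at 0, 2 and 12 hai, and 6.65% of the genes tested had that order at these times. At 36 hai the order was turned around, with 2.12 TPM in C129, 4.22 TPM in C033 and 5.19 TPM in C032, and the counting interval of C129 overlapped neither of the others. Of the genes tested, 0.0789% had both the early order and its reverse at 36 hai. This pattern was picked after the values of GID1a were seen and was not tested. With the median-of-ratios scaling C129 was below C033 at 12 hai, and the order at 0, 2 and 36 hai was the same.

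Over all 5 time points no pair of accessions differed past the threshold. As the repeats of an accession were its times, these tests leave out the spread between batches of seed. C129 was higher than C032 by 0.67 on the log2(TPM + 1) scale, with an interval of 0.01 to 1.33 (limma with time as a term, adjusted p = 0.107), where 4.47% of the genes tested were called higher in C129. The difference of C129 from C033 was 0.23, with an interval of -0.43 to 0.90 (adjusted p = 0.524 by limma, 4.27% of the genes called higher). That of C033 from C032 was 0.43, with an interval of -0.23 to 1.09 (adjusted p = 0.417 by limma, 2.29% called higher). Without the 36 hai libraries C129 was higher than C032 by 1.08 (limma adjusted p = 0.00374).

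When the accession difference was split by stage, a choice made after the levels had been seen, GID1a was higher in C129 than in C032 at 0, 2 and 12 hai. The difference was 1.31 with a standard error of 0.26 and an interval of 0.74 to 1.87 (limma adjusted p = 0.00286), and C129 was the higher one at 3 of 3 times. In this comparison 5.75% of the genes tested were called higher in C129. The repeats of each accession were its times, with 1 pooled library each. The p-value therefore leaves out the spread between batches of seed of 1 accession. At 36 and 72 hai the difference was -0.29 with an interval of -0.98 to 0.40 (limma adjusted p = 0.585). The change of the difference between the stages was -1.60 with an interval of -2.49 to -0.70, and it did not pass the threshold after adjustment over all genes (limma adjusted p = 0.0713, where 0.909% of the genes were called in that direction). C129 and C033 did not differ past the threshold at 0, 2 and 12 hai, with a difference of 0.52 and an interval of -0.05 to 1.09 (limma adjusted p = 0.143). With the median-of-ratios scaling the early difference of C129 from C032 was 0.90 (limma adjusted p = 0.0588) and lost its call.

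The other loci compared, of gibberellin genes and of regulators, were taken from a list of 17 loci, of which 12 passed the filter on low values. The list holds 5 loci of gibberellin synthesis, 4 of signalling downstream of the receptor and 8 of regulators that act beside it. The study named GA1, KO1, RGL2, ABI3, PIL5 and NF-YC9, and also GID1a, from clusters of courses in the C129 libraries, which are also used here. ABI3 and RGL2 have 2 copies each on the list. The counts over time were thus partly fixed by the choice of loci and are a description only. Between 12 and 36 hai, where GID1a fell, 7 of the 12 fell and 1 rose. The median change was -1.33 beside 0.04 over all genes tested (18.8% of all genes rose and 14% fell). The 7 were GA1, GA20ox1 and the C copy of RGL2 among the gibberellin loci, and both copies of ABI3, DOF6 and PIL5 among the regulators. Between 2 and 12 hai 7 of the 12 rose, with a median of 1.08 beside 0.25 over all genes (11% rose and 2.08% fell), and the other 5 had differences of 0 to 0.95. The count that rose was 2 with the median-of-ratios scaling (GA20ox1 and the C copy of RGL2) and 4 without C033. Between the accessions the 12 loci differed by -0.75 to 0.60 on the log2(TPM + 1) scale, so that none passed the log2 threshold of 1, although in limma 4 of them had an adjusted p under 0.05 for C129 against C033, where the median of all genes was 0.36, and 2 for C129 against C032.

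GA1 (BnaA09g01090D) codes for the enzyme of the first committed step of gibberellin synthesis, and it had the course closest to that of GID1a on the list. Its level in C129 was 2.88, 3.28, 7.27, 0.680 and 0.287 TPM at 0, 2, 12, 36 and 72 hai. C033 had 1.72, 1.70, 5.37, 0.541 and 0.355 TPM, and C032 had 1.41, 1.68, 3.22, 0.196 and 0.165 TPM. In TPM as deposited, GA1 thus peaked at 12 hai in all 3 accessions, as GID1a did, and it fell by 2.05 on the log2(TPM + 1) scale to 36 hai (limma adjusted p = 3.93e-07). As deposited, the order C129, C033, C032 was also that of GA1 at 0, 2 and 12 hai, as in 6.65% of the genes tested. The gap was as narrow as 1.70 against 1.68 TPM between C033 and C032 at 2 hai. The median-of-ratios scaling divides the 12 hai values by 1.545 in C129 and 0.953 in C033. GA1 was then lower in C129 than in C033 at 12 hai. GA20ox1 (BnaA03g47400D), an oxidase of the last steps of synthesis, reached 20.2 TPM in C129 at 12 hai against 2.42 TPM in C033 and 2.02 TPM in C032. At the other times it was at 1.08 TPM or lower, and it fell by 1.98 from 12 to 36 hai (limma adjusted p = 0.00849). KO1 (BnaC07g28980D), the ent-kaurene oxidase, followed another course, with its highest level at 36 hai in each accession, at 60.5 TPM in C129, 33.4 TPM in C033 and 34.1 TPM in C032. Its difference from 12 to 36 hai was 0.87 (limma adjusted p = 0.00343), short of the log2 threshold of 1, which it passed with the median-of-ratios scaling (1.02). Both GA20ox2 loci stayed at or under 1.34 TPM in every library and were not tested.

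The DELLA repressor RGL2, the protein that the receptor binds, was present as a C and an A copy. BnaC05g47760D had 28.5, 33.1, 178, 48.4 and 13.1 TPM in C129 over the 5 times. It rose by 1.86 from 2 to 12 hai (limma adjusted p = 5.46e-05) and fell by 1.04 to 36 hai (limma adjusted p = 0.00163), a fall that was -0.88 and under the log2 threshold with the median-of-ratios scaling. The A copy, BnaA05g32640D, rose by 1.68 (limma adjusted p = 0.0491), which lost its call with that scaling (1.21, adjusted p = 0.105), and its difference of -1.45 from 12 to 36 hai missed the threshold (limma adjusted p = 0.0538). Set against the sum of both copies, on TPM, GID1a stood at 1.0 times RGL2 in the dry seed of C129, 0.724 times in C033 and 0.319 times in C032. This sets 1 receptor locus against 2 RGL2 loci. No other receptor locus was identified here, so it is not a ratio of all receptor transcript to RGL2. At 12 hai the ratios were 0.264, 0.382 and 0.306, and at 36 hai they were 0.0253, 0.0499 and 0.0418. At 36 hai RGL2 was thus far more abundant than the transcript of this 1 receptor locus. The RGL2 copies still summed to 83.7, 84.4 and 124 TPM in C129, C033 and C032. The 2 SNE loci, which code for F-box proteins, were at most 0.781 TPM and were not tested.

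Among the regulators, both copies of ABI3, a transcription factor of the ABA response in seeds, were also highest at 12 hai in each accession. BnaC03g44820D had 34.0, 38.2, 99.2, 7.15 and 1.42 TPM in C129, and it rose by 1.24 from 2 to 12 hai (limma adjusted p = 0.00275) and fell by 2.87 to 36 hai (limma adjusted p = 6.45e-07). BnaA03g37510D rose by 1.14 (limma adjusted p = 0.00261) and fell by 3.04 (limma adjusted p = 1.49e-07). With the median-of-ratios scaling both ABI3 rises lost their call, at 0.76 for the C copy and 0.67 for the A copy, and both falls kept it, at -2.70 and -2.88. At 36 hai ABI3 was lowest in C129 and highest in C032 for both copies, the order that GID1a also showed at that time. C129 and C033 were close, with 7.15 against 7.77 TPM for the C copy and 9.69 against 10.6 TPM for the A copy. This match was picked after the values were seen and was not tested. The share of all genes with this order at 36 hai alone was not counted. DOF6 (BnaA02g06470D) fell by 1.80 from 12 to 36 hai (limma adjusted p = 2.27e-06). PIL5 (BnaC07g00780D), a repressor of germination in the dark in Arabidopsis, fell by 1.21 (limma adjusted p = 1.17e-05). SPT (BnaA01g00730D), another repressor of germination in Arabidopsis, took the opposite course and rose by 3.84 (limma adjusted p = 1.22e-08), from 0.123 to 0.933 TPM at 12 hai to 14.7 to 31.9 TPM at 36 hai. HFR1 (BnaC05g01110D), a factor of light signalling, was listed at 0 in all 9 early libraries and reached 6.70 to 10.3 TPM at 72 hai, where GID1a was low. NF-YC9 (BnaA09g48620D) stayed between 8.96 and 19.9 TPM, with a difference of -0.38 from 12 to 36 hai (limma adjusted p = 0.115). NAC25 did not pass the filter.

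**Figure D4:**
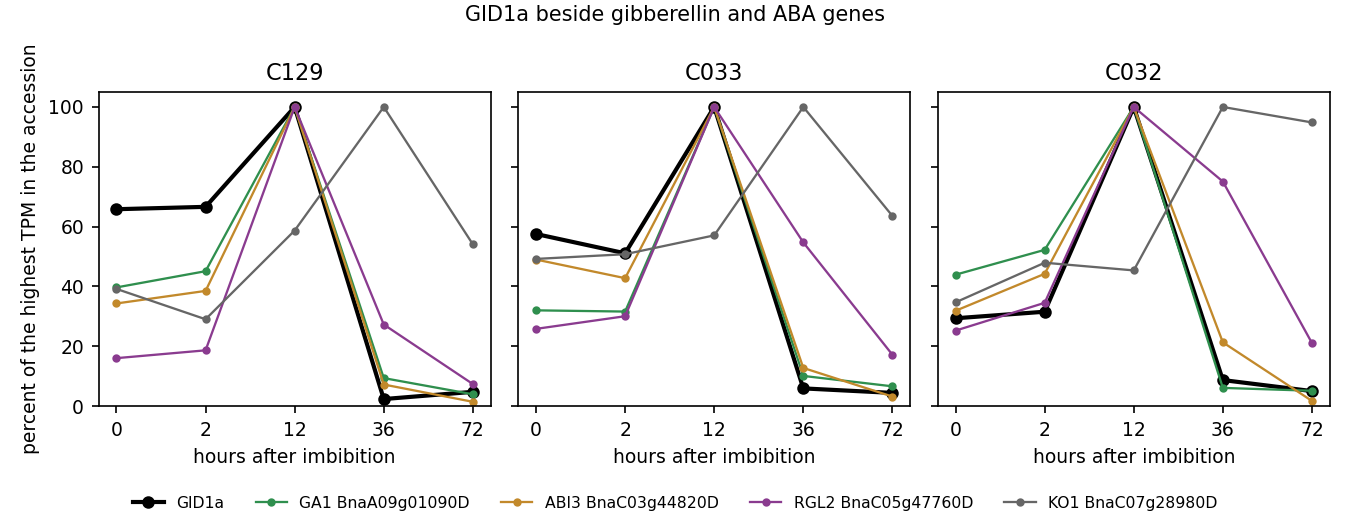
Levels of GID1a, GA1, ABI3 (C copy), RGL2 (C copy) and KO1 against hours after imbibition, each as percent of its highest TPM in the accession, in panels for C129, C033 and C032. In TPM as deposited, GID1a (in C129 not after median-of-ratios scaling), GA1, ABI3 and RGL2 are highest at 12 hai and KO1 at 36 hai in each accession, and GID1a stands at 2.35%, 5.91% and 8.70% of its maximum at 36 hai.

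The likeness of the courses was measured as Pearson's r of log2(TPM + 1) over the 15 libraries, which all genes share, and is given as a description. On the list, r with GID1a was 0.93 for GA1, 0.89 and 0.88 for the A and C copies of ABI3, 0.67 for PIL5, 0.62 and 0.45 for the A and C copies of RGL2, -0.56 for KO1 and -0.90 for SPT. Over all 53232 other genes the median r was -0.29, and 907 of them, or 1.70%, had an r above 0.9. GA1 was the 309th in that order.

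The 10 genes most like GID1a had an r of 0.972 to 0.984. In order they were BnaC01g09660D, BnaA06g28300D, BnaA04g20250D, BnaA06g35600D, BnaA08g11160D, BnaC09g47910D, BnaCnng71320D, BnaC03g35770D, BnaA06g25030D and BnaA02g30980D, and no name was paired with any of them in the tables used here. The closest, BnaC01g09660D, had 11.4, 11.8, 32.3, 0.249 and 0.211 TPM in C129 and 3.33, 3.96, 8.76, 0.292 and 0.0756 TPM in C032 over the 5 times. BnaA06g25030D, chosen after its values were seen because its levels were nearest to those of the receptor gene, had 58.1, 54.0, 81.1, 5.55 and 5.93 TPM in C129. An Arabidopsis match or a name from the list was known here for only 1846 of the 53232 genes compared. Among these, BnaA01g08090D had the highest r, 0.962, and it was the 32nd over all genes compared. Its matches are neighbouring basic helix-loop-helix transcription factor loci. The choice of the 10 was not stable, since 1 to 4 of them were again among the 10 highest under the alternatives tried.

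The genes beside GID1a on the scaffold did not share its course over time. BnaC05g46670D lies on the other strand, with 625 bases between its nearer end and the end of GID1a. Its highest level was at 36 hai in each accession, at 60.4 TPM in C129, 33.05 TPM in C033 and 27.1 TPM in C032. Its r with GID1a was -0.51. On the other side, BnaC05g46690D was at 2.67 TPM or lower, with its highest level at 72 hai in each accession (r = -0.71). BnaC05g46700D and BnaC05g46710D had an r of -0.37 and -0.42. In TPM as deposited, BnaC05g46700D had the order C129, C033, C032 at 0, 2 and 12 hai, as GID1a did. Its levels at 0 hai were 5.15, 4.06 and 2.12 TPM. BnaC05g46710D had this order at 0 and 2 hai but not at 12 hai. BnaC05g46670D had it at 0 and 12 hai but not at 2 hai, and BnaC05g46690D did not have it. These orders were not tested. BnaC05g46660D did not exceed 0.0949 TPM, and BnaC05g46650D was listed at 0 in every library.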

How the data were processed

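RNA was taken from seeds of 3 accessions at 5 time points (15 libraries). The authors sequenced paired ends of 100 bases, aligned the reads with HISAT to the assembly AST_PRJEB5043_v1 and quantified genes with StringTie (versions not given in the sources used here). The deposited table holds TPM per gene, scaled by the authors over coding and non-coding rows together, and the mean coverage of each gene, a signal from which fragments were recomputed here as coverage times exon length over the 2 reads of 100 bases. Every TPM value followed the coverage of its library. Depth was 19360693 to 41692811 reads over coding genes, and the 95% exact Poisson intervals cover counting error only.

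Since the values are TPM, limma (3.58.1, R 4.3.3, with trend and robust options) was fitted on log2(TPM + 1), so changes of low genes are understated. All 15 libraries entered, with time and accession as terms (8 residual degrees of freedom) and the 53233 coding genes that reached 1 TPM in 3 or more libraries. P-values were adjusted over these genes (Benjamini-Hochberg), and a call needed an adjusted p under 0.05 and a log2 difference beyond 1. A split of the accession difference at 12 hai (6 residual degrees of freedom) was added after the levels were seen. The ratios within 1 accession were given without a test. The procedure was tested on simulated data in which 200 of 53233 genes changed at 36 hai by a log2 of 1.5 or 2. For 12 to 36 hai 100% of them were recovered, with 1 false call. The simulation held no accession difference and far fewer changed genes than were called here. It therefore does not show how the calls behave in these data. Named genes were GID1a, the 17 listed gibberellin and regulator loci, the 10 genes most like GID1a, the 5 most like it with a match, and 3 neighbours on each side. GID1a and these lists were chosen with earlier results of these data known. Alternatives were other scalings, pseudocounts, filters and models, and leaving out each accession or time point. Of the coding loci, 3347 were found in the RefSeq gene table of the Da-Ae assembly, where GID1a was not among them, so no sequence or further receptor locus was taken from it.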

Additional observations from a re-analysis of the deposited data

Results flagged for a closer look

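In TPM as deposited, GID1a moved in opposite directions between accessions at 2 steps, and this difference was not tested, since each accession has 1 library per time point. From 36 to 72 hai C129 had a log2 ratio of TPM of 1.02, C033 one of -0.43 and C032 one of -0.80. From 0 to 2 hai C129 had 0.017, C033 -0.17 and C032 0.10, and the counting intervals of both libraries overlapped in each accession. With the median-of-ratios scaling the ratios of this step were all negative, at -0.066, -0.13 and -0.032.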

How the results depend on the processing

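The falls of GID1a from 0 to 36, 12 to 36 and 0 to 72 hai kept their direction and their call under all 14 alternatives. From 12 to 36 hai the change ranged from -4.33 to -3.54 (limma adjusted p 1.28e-06 to 0.00255). The difference between 2 and 12 hai (1.05, range 0.58 to 1.28) passed with limma without its trend and robust options (adjusted p = 0.0460), without 0 hai (1.05, 0.0468), without 36 hai (1.05, 0.00625) and without C129 (1.28, 0.0221). That between 0 and 12 hai (1.03) passed without those options (0.0453), without 36 hai (0.00598) and without C129 (1.25, 0.0215). Small differences changed sign: 0 to 2 hai without C033 (0.058), 36 to 72 hai without C033 (0.066) and without C032 (0.22), C129 minus C033 with the median-of-ratios scaling (-0.23) and C129 minus C032 at 36 and 72 hai without 36 hai (0.41). C129 minus C032 passed without 36 hai (1.08). Its difference at 0, 2 and 12 hai, added after the data were seen, lost its call with the median-of-ratios scaling (0.90), and its change between stages passed without 12 hai (-1.95, adjusted p = 0.0218) and without 72 hai (-2.29, 0.0382). The list count at 2 to 12 hai was 2 with that scaling and 4 without C033, against 7. Of the 10 most alike genes 3 were again among the 10 highest with Spearman's rho, 4 with the median-of-ratios scaling, 2 without C129, 1 without C033 and 2 without C032. The causes of these changes were not tested. Without accession as a term the time changes of GID1a kept their calls, and 2 to 12 hai had an adjusted p of 0.129. With 1 library per condition, accession-specific changes rest on counting error alone.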
